A study of Mus musculus with 6 samples.

Results

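The collagen chains, the subunits of the most abundant proteins of the extracellular matrix, were followed through the treatment of mouse fibroblasts with Tet3. A gene was a member when the RefSeq accession printed on the array led to a current symbol of the form Col, number, a, number (such as Col1a1). Of 20656 genes named in this way, 43 were collagen chains, measured by 63 probes. RefSeq holds 44 genes with such symbols, and Col12a1 is not analysed here. Each chain is represented by its brightest probe over the arrays, and 14 of the 43 chains had more than 1 probe. RNA was hybridised to 6 single-colour Agilent arrays, with 1 array per group. The starting cells were mouse embryonic fibroblasts (MEF) from E13.5 embryos of the ICR strain. Other MEF received adenoviral supernatants on 2 days and were collected as Tet3-induced neurons at the labelled times of 1, 3, 5 and 7 dpi. Primary neurons, also labelled E13.5, were the reference. The MEF and Tet3 arrays together are called the fibroblast arrays. Neuronal medium with forskolin replaced part of the medium on days 3 and 5 after the second infection. No group with virus alone is among these samples, so virus, Tet3 and medium cannot be told apart.

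Collagens are built from chains whose glycine-rich repeats wind around each other in sets of 3 to form a rigid helix. Fibrillar collagens (types I, III and V among them) assemble into the tensile fibres of connective tissue, for which fibroblasts are the main source. Type IV chains form the sheet-like network of basement membranes, and types VII, XV and XVIII lie in or anchor the zone around them. Types II, IX, X and XI belong to cartilage and are counted in that class here, although types II and XI also form fibrils. The remaining chains form beaded filaments (type VI), hexagonal networks (type VIII), molecules that decorate fibril surfaces, and proteins anchored in the cell membrane. Prolyl and lysyl hydroxylases, chaperones, propeptide proteases and lysyl oxidases act in turn on the chains to give a stable matrix.

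The values are log2 levels on which 0 is the 75th percentile of an array, so that each step of 1 is a 2-fold difference within 1 probe. Levels of different probes are not compared. Of the 43 chains, 32 were well above background on all 6 arrays, 10 on some of them and 1, Col13a1, on none. A difference is written as "at least" where only 1 of the arrays compared was well above background. The scanner software's error of a difference between arrays had a median of 0.20 on the log2 scale over the chains measured against MEF at each Tet3 time. With 1 array per group there is no spread between cultures and no test between groups, so every difference describes a pair of arrays. No collagen spot was marked as an outlier or saturated.

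All 9 fibroblast markers were well above background on every array. In primary neurons all 9 were at least 2-fold lower than in MEF, against 16.1% of all genes with a value. Neuronal markers past 2-fold over MEF numbered 2 of 7 with a value at 1 dpi and 5 of 7 at 3 dpi. They numbered 6 of 8 at 5 dpi and 8 of 8 in the array labelled 7 dpi. The shares of all genes were 5.38%, 16.3%, 17.9% and 17% in the same order. The brightest Tet3 probe, at -0.22 in MEF, read 1.13, 1.74 and 2.57 at 1, 3 and 5 dpi but 0.07 on the last Tet3 array, which is therefore called the array labelled 7 dpi. All 7 macrophage markers were at least 2-fold lower than in MEF on every other array, against 5.98% to 16.1% of all genes. The log2 of the summed level of these markers went from 7.73 in MEF to 0.87 in the array labelled 7 dpi. Of the arrays, MEF and 1 dpi came from scan 1, while 3, 5 and 7 dpi and neurons came from scan 2, so that scan and time cannot be told apart in a difference of these 4 from MEF. Between 72.9% and 86.1% of probes were well above background on an array. Bulk RNA cannot tell fewer cells of a type from less RNA per cell. The median of all genes measured on both arrays lay at 0.15, 0.15 and 0.14 over MEF for 3, 5 and 7 dpi and at 0.09 for neurons. Quantile normalization moved these medians to 0.03, 0.01, 0.03 and -0.11, and centring each array on its median moved them to -0.15, -0.26, -0.30 and -0.71.

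Col4a1 and Col4a2, whose chains form 1 molecule, lie head to head, and in RefSeq their starts are 21 bases apart on opposite strands. Their promoter windows, each reaching from 250 bases before to 50 bases after the start, are printed because these chains moved together on the Tet3 arrays. The windows of Col1a2, whose level was steady on all fibroblast arrays, and of Col10a1, whose level peaked at 3 dpi, are printed for contrast. RefSeq windows (GRCm38.p6) were found for 35 of the 43 chains. In the first pair, capitals mark the 78 bases present in both windows, read on opposite strands. In Col1a2 they mark CCAAT or its reverse complement ATTGG, and in Col10a1 they mark TATAAA.
Col4a1 (chr8:11312777-11313076, minus strand): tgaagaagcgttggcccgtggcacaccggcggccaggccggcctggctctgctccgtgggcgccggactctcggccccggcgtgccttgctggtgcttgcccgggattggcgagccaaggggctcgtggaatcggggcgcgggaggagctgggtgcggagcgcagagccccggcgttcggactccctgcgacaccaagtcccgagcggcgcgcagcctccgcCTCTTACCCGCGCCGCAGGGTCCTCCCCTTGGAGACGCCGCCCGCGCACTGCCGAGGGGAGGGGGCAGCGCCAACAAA
Col4a2 (chr8:11312555-11312854, plus strand): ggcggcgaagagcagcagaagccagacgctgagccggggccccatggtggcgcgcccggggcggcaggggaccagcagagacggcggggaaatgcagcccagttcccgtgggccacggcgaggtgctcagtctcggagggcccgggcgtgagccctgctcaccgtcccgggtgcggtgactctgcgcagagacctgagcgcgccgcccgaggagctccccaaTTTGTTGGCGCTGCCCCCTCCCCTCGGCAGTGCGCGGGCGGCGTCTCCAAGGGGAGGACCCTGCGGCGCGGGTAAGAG
Col1a2 (chr6:4505368-4505667, plus strand): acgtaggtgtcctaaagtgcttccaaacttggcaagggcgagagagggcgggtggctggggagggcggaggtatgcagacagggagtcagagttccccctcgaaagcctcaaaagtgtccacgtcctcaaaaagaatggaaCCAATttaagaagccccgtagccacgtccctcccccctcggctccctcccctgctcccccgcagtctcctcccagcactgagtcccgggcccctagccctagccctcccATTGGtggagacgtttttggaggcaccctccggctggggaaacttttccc
Col10a1 (chr10:34389731-34390030, plus strand): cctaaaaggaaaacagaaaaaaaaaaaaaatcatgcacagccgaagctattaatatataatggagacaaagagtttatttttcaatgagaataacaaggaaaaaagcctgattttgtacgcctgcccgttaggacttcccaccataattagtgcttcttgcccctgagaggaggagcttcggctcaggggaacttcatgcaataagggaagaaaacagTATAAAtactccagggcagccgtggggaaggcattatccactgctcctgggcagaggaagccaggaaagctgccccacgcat

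Searched on both strands, TATAAA was in 13.6% of all 32851 RefSeq windows of this length and in 5 of the 38 windows of collagen chains, among them Col10a1, where it began 32 bases before the start. CCAAT was in 37.4% of all windows and in 13 of the 38. GGGCGG was in 35.7% of all windows and in 23 of the 38, with 3 matches in the window of Col4a2, 1 in that of Col4a1, 2 in that of Col1a2 and none in that of Col10a1. The GGGCGG matches nearest the start of Col4a1 and of Col4a2 lie in the shared stretch. A match is a description of letters in a window.

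Against MEF, few collagen chains differed at 1 dpi and most differed in neurons. At 1 dpi, 6 of the 37 chains with a value were at least 2-fold higher, against 5.38% of all genes with a value, and 2 were at least 2-fold lower, against 5.98%. The counts at 3 dpi were 9 of 37 higher, against 16.3% of all genes, and 5 lower, against 9.82%. At 5 dpi 9 of 39 chains were higher, against 17.9%, and 4 lower, against 8.21%. The array labelled 7 dpi had 15 of 39 higher, against 17%, and 4 lower, against 6.83%. Neurons had 13 of 42 higher, against 30.1%, and 19 lower, against 16.1%. The median over the chains was 0.11 at 1 dpi, -0.0049 at 3 dpi, 0.14 at 5 dpi, 0.50 in the array labelled 7 dpi and -0.56 in neurons, beside medians of 0.07, 0.20, 0.20, 0.16 and 0.25 over all genes with a value. The counts depended on the scaling and the background correction, most of all in the array labelled 7 dpi. That array had 6 chains higher and 7 lower with arrays centred on their median, and 8 higher and 4 lower with normexp correction. Centring gave 9 higher and 8 lower at 3 dpi, 5 higher and 7 lower at 5 dpi, and 6 higher and 22 lower in neurons. The shares of all genes under these settings are not given here. Under centring the median over the chains was -0.30 at 3 dpi and -0.26 at 5 dpi. It was 0.057 in the array labelled 7 dpi and -1.36 in neurons. Over all genes measured on both arrays the centred medians were -0.15, -0.26, -0.30 and -0.71 in the same order. The direction at 5 dpi thus turned for the chains and for all genes alike. In all, 37 of the 43 chains were past 2-fold from MEF on at least 1 of the 5 arrays. The matching share of all genes was not counted, so this number cannot be set against it.

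**Figure D1:**
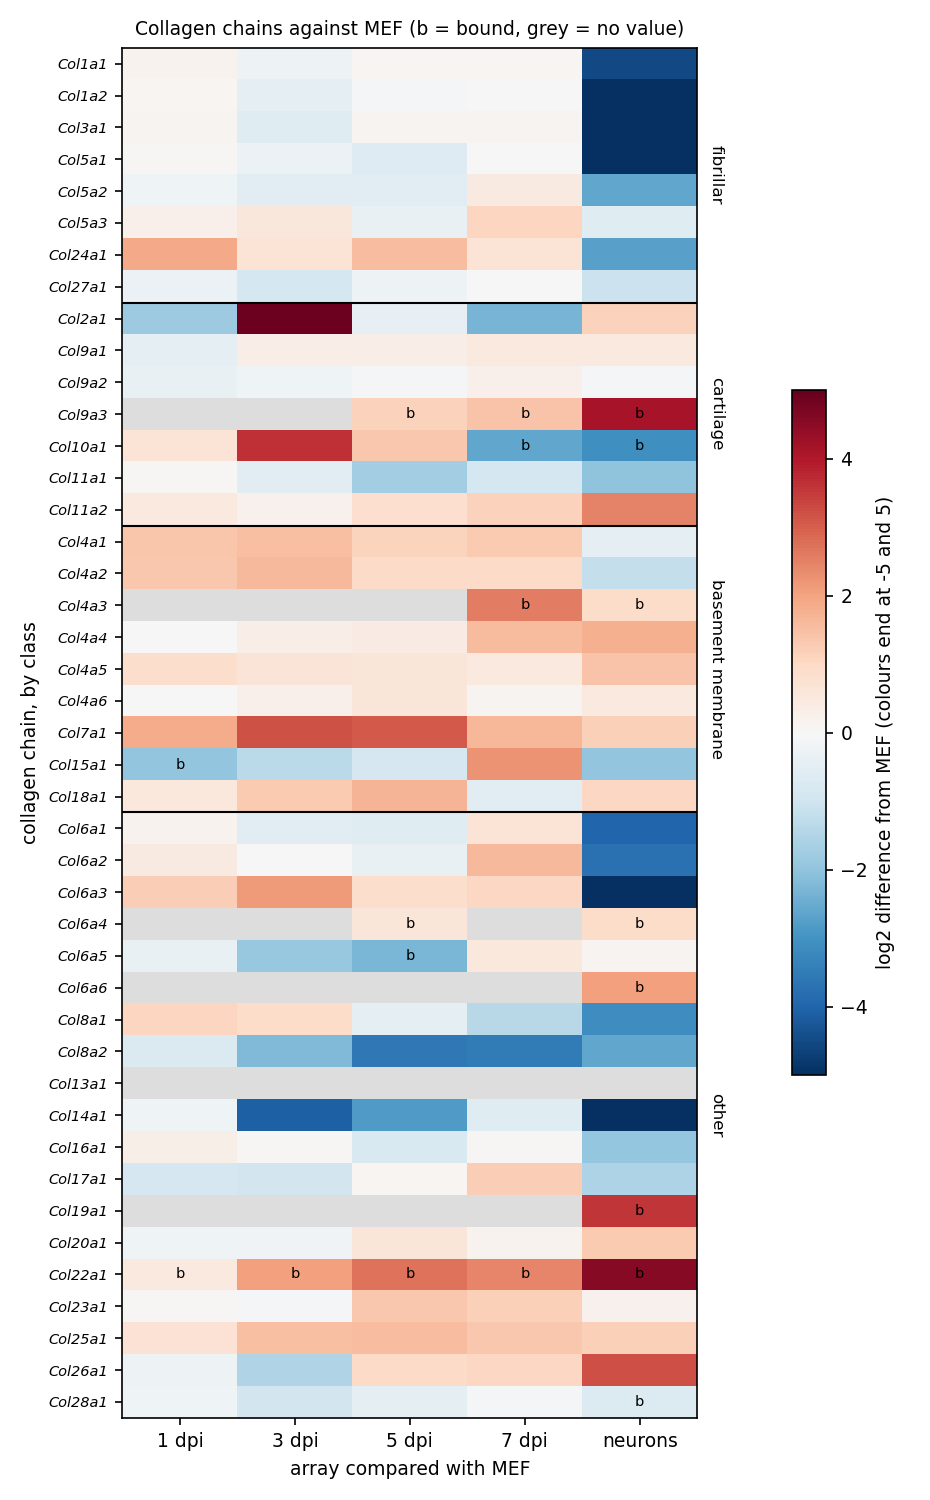
Log2 difference of each of 43 collagen chains (rows, by class) from MEF on the 4 Tet3 arrays and the neuron array (columns), with red for higher and blue for lower. A b marks a bound and grey marks no value; most fibrillar chains are pale on the Tet3 arrays and blue in neurons, Col24a1 being red at 1 and 5 dpi, while rows such as Col2a1 change colour between times.

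The main fibrillar chains stayed near their MEF level at every Tet3 time and were low in neurons. The fibrillar class of 8 chains leaves out types II and XI, which are counted with cartilage. At the 4 Tet3 times in order, 1, 0, 1 and 1 of the 8 were at least 2-fold higher than MEF. In the same order, the shares of all genes were 5.38%, 16.3%, 17.9% and 17%. At least 2-fold lower on any of these arrays were 0 of the 8, against 5.98%, 9.82%, 8.21% and 6.83%. This 0 depended on the scaling: Col27a1 was past 2-fold lower at 3 dpi with quantile normalization or median centring, and Col5a1 at 5 dpi with median centring. In neurons 7 of 8 were lower, against 16.1% of all genes, with a class median of -3.61.

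Col1a1, which gives the larger share of type I collagen, the main protein of skin and bone, had levels of 6.70 in MEF, 6.86, 6.43, 6.81 and 6.80 over the Tet3 arrays in order of time, and 2.21 in neurons. Its partner Col1a2 read 6.54, 6.65, 6.08, 6.44, 6.53 and -0.03 in the same order. All 5 fibroblast arrays of each chain lay close together, lowest at 3 dpi, and the neuron array lay far below. In neurons Col1a1 was 22.5-fold lower than in MEF and Col1a2 94.7-fold lower, each with an array error of 0.20, so that the differences of the pair from MEF lay 2.07 apart on the log2 scale in neurons but at most 0.21 apart on the Tet3 arrays. On the raw scale the spots of Col1a1 in MEF reached 29.6% of the scanner's saturation value, so the near-constant levels were not read at the scanner's ceiling.

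Col3a1, the chain of type III collagen of elastic and vascular tissue, read 6.86 in MEF, 6.99, 6.26, 7.00 and 7.01 over the Tet3 arrays in order of time, and 1.86 in neurons. Its spots reached 34.3% of saturation in MEF, and its neuron level was 32.1-fold below MEF. Type V collagen sits inside type I fibrils and limits their width. Col5a1 read 5.20, 5.25, 4.91, 4.57, 5.17 and -0.01, and Col5a2 read 2.03, 1.83, 1.45, 1.51, 2.48 and -0.58, over the same arrays. Both had their lowest fibroblast levels at 3 and 5 dpi, and neither was 2-fold from MEF at any Tet3 time, except Col5a1 at 5 dpi once arrays were centred on their median. In neurons Col5a1 was 36.9-fold lower and Col5a2 6.11-fold lower.

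Col24a1, a minor fibrillar chain of developing bone, departed from this pattern. It read -3.04 in MEF, -1.15, -2.36, -1.50 and -2.35 over the Tet3 arrays in order of time, and -5.78 in neurons, so that MEF was the lowest fibroblast array. It was 3.73-fold higher than MEF at 1 dpi, in the same scan, and 2.92-fold higher at 5 dpi. Col5a3, a further type V chain, was highest in the array labelled 7 dpi (0.83, against -0.24 in MEF and -0.61 at 5 dpi), a 2.09-fold difference from MEF that was 0.62 on the log2 scale after median centring. Col27a1 was within 2-fold of MEF on the Tet3 arrays, other than at 3 dpi under the scalings named, and 2.13-fold lower in neurons, which was -0.77 on the log2 scale with normexp correction.

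**Figure D2:**
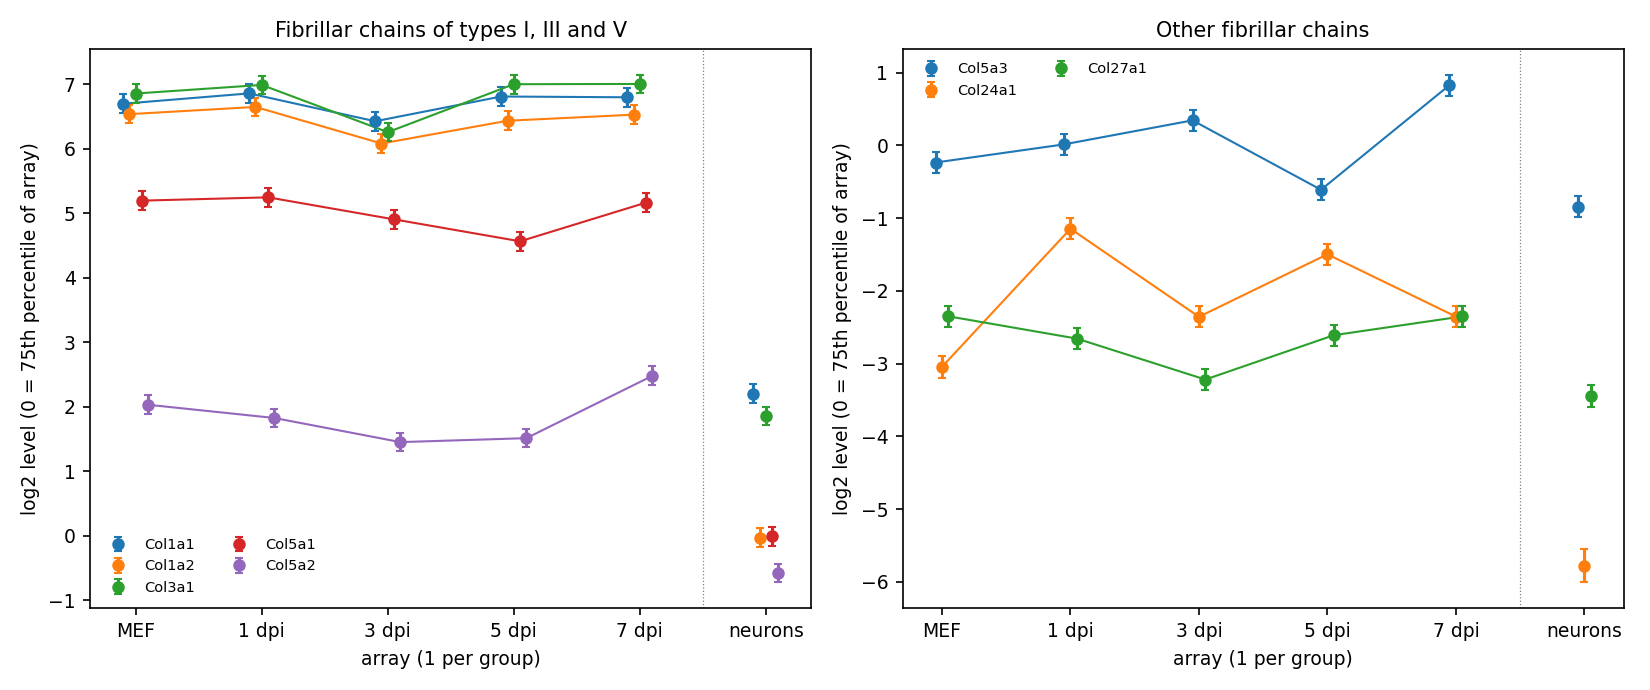
Log2 level (vertical axis, 0 at the array's 75th percentile) of 8 fibrillar chains on 6 arrays (horizontal axis), with bars for the array error and lines joining the arrays of the Tet3 series. Col1a1, Col1a2 and Col3a1 lie between 6.08 and 7.01 on all fibroblast arrays and at 2.21 or below in neurons, while Col24a1 is higher at 1 and 5 dpi than in MEF.

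The cartilage chains did not move as a group, but a pair of them had a sharp peak at 3 dpi. Of 6 chains with a value, 2 were at least 2-fold higher than MEF at 3 dpi, against 16.3% of all genes. None was lower, against 9.82%. On the array labelled 7 dpi 2 of 7 were higher, against 17%, and 2 lower, against 6.83%. The 2 higher, Col9a3 and Col11a2, fell short of 2-fold with normexp correction, quantile normalization or median centring. The 2 lower, Col2a1 and Col10a1, were past 2-fold under each alternative that gave a value.

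Col2a1, the chain of the main collagen of hyaline cartilage, read -3.02 in MEF, -4.82, 1.90, -3.44 and -5.35 over the Tet3 arrays in order of time, and -1.88 in neurons. The 3 dpi array stood far above every other, and 1 dpi and the array labelled 7 dpi were the lowest. Relative to MEF it was 3.48-fold lower at 1 dpi (array error 0.25), 30.2-fold higher at 3 dpi (0.21) and 5.04-fold lower in the array labelled 7 dpi (0.29). Within the scan of the later arrays it was 40.5-fold lower at 5 dpi than at 3 dpi. Col10a1, the network collagen of hypertrophic cartilage, read -3.49 in MEF, -2.82 at 1 dpi, 0.18 at 3 dpi and -2.14 at 5 dpi, and was not well above background in the array labelled 7 dpi (-8.20) or in neurons (-8.82). It was 12.7-fold higher than MEF at 3 dpi, 5.01-fold lower at 5 dpi than at 3 dpi, and at least 15.2-fold lower in the array labelled 7 dpi than at 5 dpi. Both chains are represented by 1 probe, so the filters and the mean over probes could not change their difference between 3 dpi and MEF. Both peaks were past 2-fold with normexp correction, quantile normalization and median centring.

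The other chains of cartilage fibrils did not follow Col2a1. Col11a1, the chain that nucleates its fibrils, read 2.54 in MEF, 2.60, 1.95, 0.78 and 1.67 over the Tet3 arrays in order of time, and 0.51 in neurons, and was 3.37-fold lower than MEF at 5 dpi. Col11a2 was between -4.00 and -2.86 on the fibroblast arrays and highest in neurons (-1.51), 5.59-fold above MEF. Type IX collagen coats type II fibrils. The brightest probe of Col9a1 ranged from -3.63 to -2.67 and the probe of Col9a2 from -2.53 to -1.90 over all 6 arrays, without a 2-fold difference from MEF. A dimmer Col9a1 probe read -5.02 in MEF and -1.25 in neurons. Col9a3 was not well above background in MEF or at 1 dpi and read -6.80 at 3 dpi, -5.45 at 5 dpi, -5.18 in the array labelled 7 dpi and -2.48 in neurons, where it was at least 17.3-fold higher than in MEF.

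Markers of chondrocytes are given beside these chains, and their part in the peak was not tested. Of 8 markers, 6 were well above background at 3 dpi. Of the 7 with a value there, 2 were at least 2-fold higher than MEF, Acan and Matn3, against 16.3% of all genes. The 1 that was lower was Matn1, against 9.82%. The log2 of the summed level was 0.51 in MEF, 1.47 at 3 dpi, 0.95 at 5 dpi, 0.71 in the array labelled 7 dpi and 3.28 in neurons. Acan, the large proteoglycan of cartilage, read -2.67 in MEF, 0.10 at 3 dpi and -0.10 at 5 dpi, so that both arrays lay above MEF. Matn3, a cartilage matrix protein, was not well above background in MEF or in the array labelled 7 dpi and read -5.20, -4.36 and -4.32 at 1, 3 and 5 dpi, at least 4.72-fold over MEF at 3 dpi. Sox9, the transcription factor of cartilage, read 0.02 in MEF and 0.51 at 3 dpi. The cartilage proteins Matn1, which read -4.57 in MEF, and Cnmd were not well above background at 3 dpi, and Comp (-2.89 in MEF, -2.78 at 3 dpi) and Snorc (-4.97 and -4.91) lay within 2-fold of MEF. In neurons, Cnmd read -0.19 and Sox9 2.79.

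**Figure D3:**
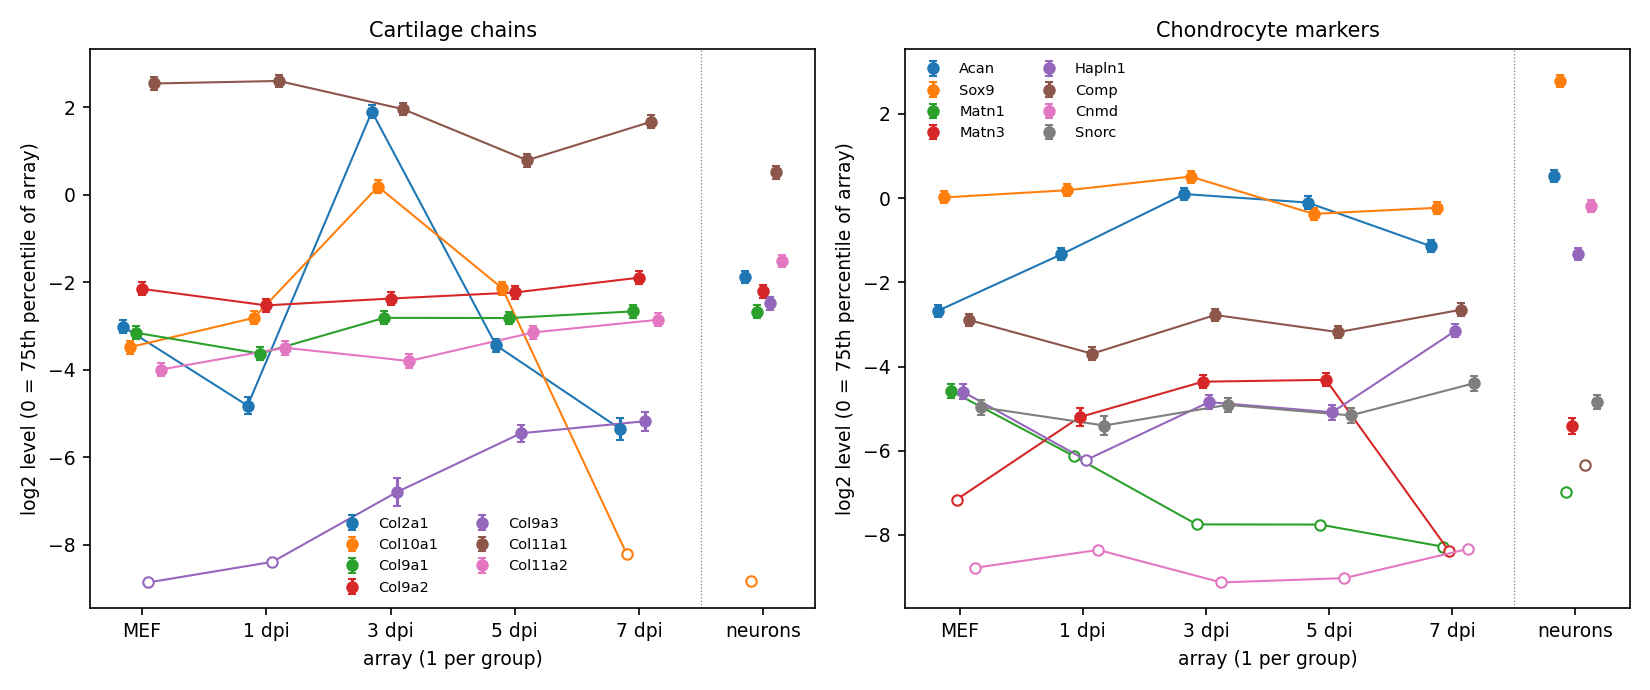
Log2 level (vertical axis, 0 at the array's 75th percentile) of 7 cartilage collagen chains (left) and 8 chondrocyte markers (right) on 6 arrays (horizontal axis), with bars for the array error and open circles for arrays not well above background. Col2a1 and Col10a1 peak at 1.90 and 0.18 on the 3 dpi array, where Matn1 and Cnmd are not above background.

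Chains of the basement membrane zone had the highest median difference from MEF of the 4 classes at each Tet3 time. Of the 8, 8, 8 and 9 chains with a value, 3 were at least 2-fold higher than MEF at 1 dpi, 4 at 3 dpi, 3 at 5 dpi and 5 in the array labelled 7 dpi, against 5.38%, 16.3%, 17.9% and 17% of all genes, while 1, 1, 0 and 0 were lower, against 5.98%, 9.82%, 8.21% and 6.83%. The class medians were 0.69, 0.98, 0.79 and 1.31 in that order, beside 0.07, 0.20, 0.20 and 0.16 over all genes with a value.

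Col4a1, part of the network present in nearly all basement membranes, read 1.66 in MEF, 3.04, 3.16, 2.76 and 2.97 over the Tet3 arrays in order of time, and 1.16 in neurons. Its partner Col4a2 read 1.68, 3.01, 3.30, 2.65, 2.64 and 0.48. All 4 Tet3 arrays were above MEF for both chains, and neurons were below it. Their differences from MEF lay within 0.34 of each other on every Tet3 array, and within 0.70 in neurons. The difference from MEF at 1 dpi, in the same scan, was 2.61-fold for Col4a1 and 2.51-fold for Col4a2. The Col4a1 probe was printed in 10 spots on each array, whose log2 values had an SD of 0.035 in MEF, 0.036 at 1 dpi and at most 0.089 on any array. With arrays centred on their median, Col4a1 stayed higher than MEF but fell short of 2-fold at 5 dpi (0.69 on the log2 scale) and in the array labelled 7 dpi (0.87).

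The other type IV chains form more restricted networks. Col4a3 was not well above background in MEF or at 1, 3 and 5 dpi, read -4.05 in the array labelled 7 dpi and -5.67 in neurons, and was at least 5.87-fold higher than MEF on the former. The brightest probe of Col4a4, its partner in the network of kidney and lung, read -2.67 in MEF and -2.68, -2.35, -2.26 and -1.10 on the Tet3 arrays in order of time, a 2.96-fold difference from MEF on the last, and -0.88 in neurons. Of its dimmer probes, 1 was not well above background on any fibroblast array, and the other read -6.38 in MEF, -4.30 at 3 dpi and -4.96 in the array labelled 7 dpi. Col4a5 was highest in neurons (2.81, against 1.38 in MEF), where it was 2.70-fold higher, but only 0.63 on the log2 scale after median centring.

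Col7a1, the chain of the anchoring fibrils under stratified epithelia, read -2.96 in MEF, -1.10, 0.21, 0.10 and -1.29 over the Tet3 arrays in order of time, and -1.78 in neurons. Every Tet3 array lay above MEF, with the top at 3 and 5 dpi, at log2 differences of 3.17 and 3.06 from MEF. Col18a1, the source of endostatin, read 0.61, 1.12, 1.92, 2.32, 0.04 and 1.66 over the same 6 arrays. It was 3.26-fold higher than MEF at 5 dpi and 4.85-fold lower in the array labelled 7 dpi than at 5 dpi, and its second probe had the same order among the Tet3 arrays. Col15a1, a related chain of muscle and vessel basement membranes, went the other way. It read -3.95 in MEF, was not well above background at 1 dpi, read -5.30 at 3 dpi, -4.79 at 5 dpi, -1.69 in the array labelled 7 dpi and -5.92 in neurons. The array labelled 7 dpi stood above all others, 4.79-fold over MEF and 8.56-fold over 5 dpi. A second probe read -4.30 in MEF and -2.06 in the array labelled 7 dpi, while the third differed by less, at -6.56 and -5.42. With normexp correction the lower values of Col15a1 at 1 and 3 dpi were within 2-fold of MEF.

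**Figure D4:**
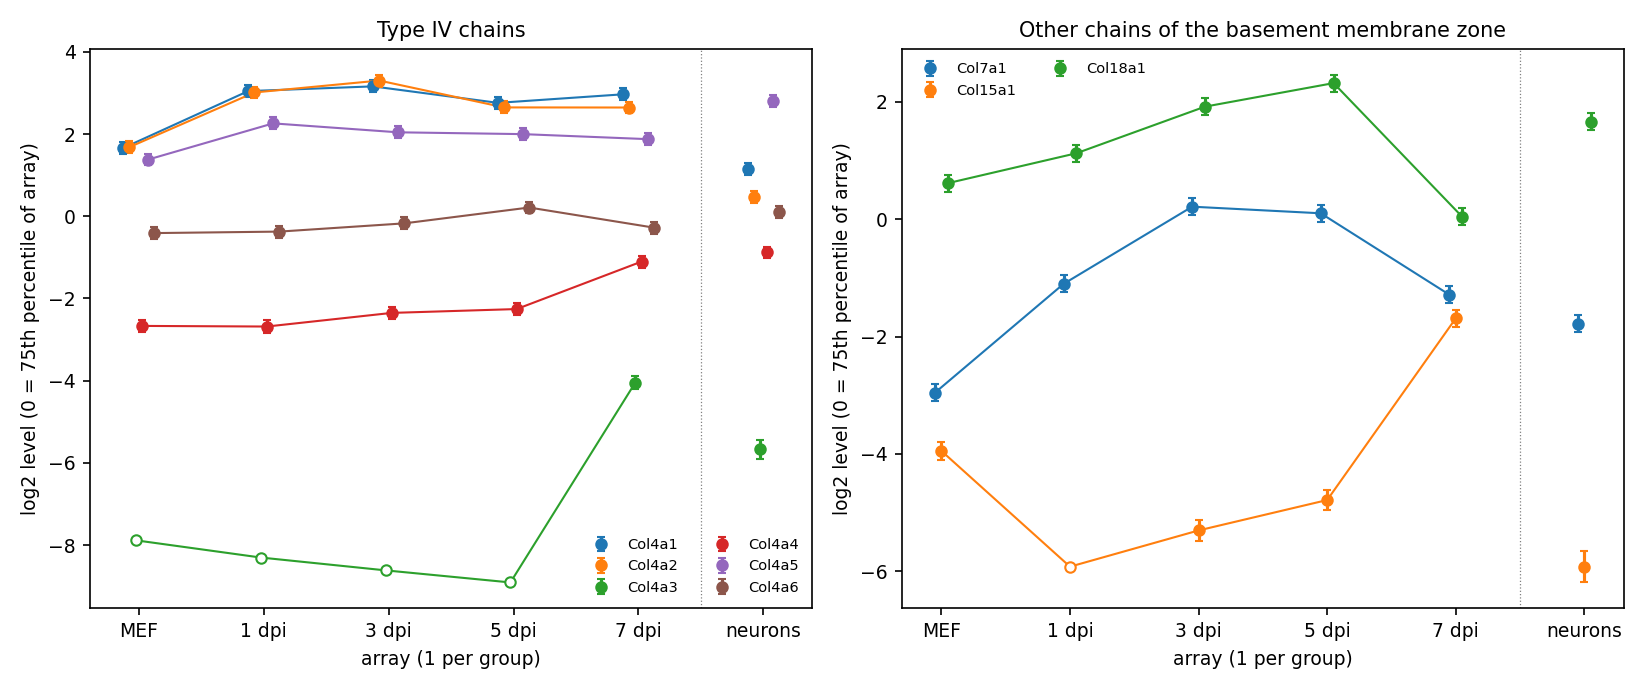
Log2 level (vertical axis, 0 at the array's 75th percentile) of 6 type IV chains (left) and 3 other chains of the basement membrane zone (right) on 6 arrays (horizontal axis), with bars for the array error and open circles for arrays not well above background. Col4a1 and Col4a2 run together between 2.64 and 3.30 on the Tet3 arrays, above 1.66 and 1.68 in MEF, and from 5 dpi to the array labelled 7 dpi Col15a1 goes up and Col18a1 down.

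Markers of other cell types are given beside these chains by their counts, since a sum can rest on 1 gene, and their part in the differences was not tested. Of all genes with a value, 5.38%, 16.3%, 17.9% and 17% were at least 2-fold higher than MEF at the 4 Tet3 times. The shares lower were 5.98%, 9.82%, 8.21% and 6.83%. Of 6 skeletal muscle markers, 4, 5, 5 and 5 were at least 2-fold higher than MEF at the 4 Tet3 times and 0 lower, and the log2 of their summed level was 1.80 in MEF and between 3.69 and 4.12 on the Tet3 arrays. Of 5 vascular and meningeal markers, 1 was higher at each Tet3 time and 2, 2, 2 and 3 were lower. The higher one was Rgs5, a marker of mural cells, which was not well above background in MEF. It read -3.56, -4.01, -2.28 and -4.55 over the Tet3 arrays in order of time. The summed level of the 5 was 1.04 in MEF and between -1.19 and 1.21 on the Tet3 arrays. Of the 6 endothelial markers, 4, 5, 5 and 4 had a value at the 4 Tet3 times. Among these, 0, 1, 0 and 0 were higher and 1, 2, 1 and 2 lower. The endothelial receptor Tie1 was not well above background on any array. The summed level of the 6 was 1.17 in MEF and between 1.35 and 1.63 on the Tet3 arrays. Of the 6 epithelial markers, 4 had a value at each Tet3 time, and 0, 1, 0 and 1 were higher and 0 lower. Epcam and Cdh1 were not well above background on any array, and the summed level was between -1.10 and -0.27. Of 5 osteoblast markers, 4, 5, 5 and 5 had a value, and 0, 2, 3 and 2 were higher and 1, 2, 1 and 1 lower. Their summed level, 3.55 in MEF and between 0.98 and 2.57 on the Tet3 arrays, followed Spp1 (3.51 in MEF, 1.41 at 5 dpi), while at 5 dpi Alpl was 11.1-fold and Ibsp 12.4-fold higher than in MEF.

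Of the remaining 19 chains, 15, 15, 16 and 15 had a value at the 4 Tet3 times. Among these, 2 were at least 2-fold higher than MEF at 1 dpi, 3 at 3 dpi, 3 at 5 dpi and 7 in the array labelled 7 dpi, against 5.38%, 16.3%, 17.9% and 17% of all genes. The numbers lower were 0, 4, 3 and 2, against 5.98%, 9.82%, 8.21% and 6.83%. The 7 higher in the array labelled 7 dpi depended on the processing. Col17a1, Col23a1, Col25a1 and Col26a1 fell short of 2-fold with normexp correction, quantile normalization or median centring, and Col6a3 with median centring. Type VI collagen is assembled from 3 different chains into beaded filaments around cells. Col6a1 read 5.15 in MEF, 5.33, 4.63, 4.56 and 5.82 over the Tet3 arrays in order of time, and 1.19 in neurons, and Col6a2 read 1.24, 1.68, 1.23, 0.86, 2.86 and -2.49. Both had their fibroblast low at 5 dpi and their high in the array labelled 7 dpi, where Col6a2 was 3.08-fold over MEF and Col6a1 stayed within 2-fold. Col6a3, the longest chain, read 2.36, 3.57, 4.48, 3.25, 3.40 and -3.46, with its high at 3 dpi, 4.36-fold over MEF. Its difference from MEF at 3 dpi exceeded that of Col6a1 by 2.64 on the log2 scale. In neurons Col6a1 was 15.6-fold, Col6a2 13.3-fold and Col6a3 56.3-fold lower than in MEF.

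The type VIII chains of subendothelial and corneal matrix were lower late in the series. Col8a1 read 1.65 in MEF, 2.72, 2.57, 1.14 and 0.25 over the Tet3 arrays in order of time, and -1.44 in neurons, so that it was 2.11-fold higher than MEF at 1 dpi and 2.64-fold lower at the end of the Tet3 series. Col8a2 read 3.29, 2.58, 1.09, -0.29, -0.21 and 0.69, with MEF highest, and had a log2 difference from MEF of -3.58 at 5 dpi. A second, dimmer Col8a2 probe ranged from -3.88 to -2.92 and was within 2-fold of MEF on all arrays.

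Col14a1, which binds the surface of type I fibrils, had the widest range among the chains well above background on all 6 arrays. It read 2.87 in MEF, 2.65, -1.20, 0.05 and 2.28 over the Tet3 arrays in order of time, and -5.31 in neurons. It was 16.8-fold lower than MEF at 3 dpi, 7.09-fold lower at 5 dpi and within 2-fold of MEF in the array labelled 7 dpi, where it was past 2-fold lower once arrays were centred on their median. In neurons it was 291-fold lower by this probe. Its dimmer probe followed with a smaller dip, from 0.31 in MEF to -1.46 at 3 dpi and -1.53 at 5 dpi, and read -0.07 in the array labelled 7 dpi and -3.01 in neurons. The neuron difference from MEF was -8.18 on the log2 scale for the brightest probe, -3.32 for the dimmer one and -5.75 with the mean over probes. Of 7 fibril-bound proteoglycans measured, 5 were at least 2-fold lower than MEF at 3 dpi, against 9.82% of all genes, among them decorin (Dcn, 6.52-fold) and Aspn (2.34-fold), and 1 was higher, against 16.3%. In the array labelled 7 dpi 1 was lower and 2 were higher. The fibroblast marker list also holds Dcn and Lum, which are both among these 5 lower proteoglycans. Of the fibroblast markers, 4 of 9 were lower at 3 dpi, against 9.82% of all genes, and 1 was higher, against 16.3%. At 5 dpi 0 were lower, against 8.21%. The part of these markers in the Col14a1 dip was not tested. Col16a1, another fibril-associated chain, ranged from 2.32 to 3.34 on the fibroblast arrays, and at 5 dpi it was past 2-fold lower than MEF once arrays were centred on their median.

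Several chains were higher in neurons than in MEF, 13 of 42 being past 2-fold, near the 30.1% of all genes. Of 5 markers of Schwann cells and glia, 4 were at least 2-fold higher there, beside the same share. The log2 of their summed level was between 0.48 and 1.03 on the fibroblast arrays and 5.26 in neurons. Their log2 differences from MEF in neurons had a median of 1.87 and a highest value of 8.97, so the sum can rest on 1 gene. The part of these markers in the differences of the chains was not tested. Col19a1 was well above background in neurons only (-3.02), with a log2 difference from MEF of at least 3.58. Col26a1 read -3.13 in MEF, -3.38, -4.63, -2.19 and -2.10 over the Tet3 arrays in order of time, and 0.11 in neurons. It was lowest at 3 dpi and 9.45-fold over MEF in neurons. Col22a1, a chain of tissue junctions, was not well above background in MEF and read -6.02, -4.48, -3.80 and -4.07 on the Tet3 arrays in order of time and -1.97 in neurons. It was at least 6.58-fold over MEF at 5 dpi and at least 23.4-fold in neurons. The membrane-anchored Col25a1 was 2.85-fold and 2.90-fold over MEF at 3 and 5 dpi, but these differences were 0.76 and 0.91 on the log2 scale at the lowest over the alternatives. Col17a1, the membrane collagen of hemidesmosomes, was instead lower in neurons (-4.21) than in MEF (-2.66), a log2 difference of -1.55. It read -3.58 at 3 dpi and -1.44 in the array labelled 7 dpi. Its difference from MEF on the latter, 1.22 on the log2 scale, fell short of 2-fold with normexp correction, quantile normalization or median centring.

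The chains not yet described were mostly near background or within 2-fold of MEF. Col4a6 ranged from -0.41 to 0.21 by its brightest probe, while its dimmer probe read -3.93 in MEF and 1.71 in neurons. Col6a4 was well above background at 5 dpi (-6.01) and in neurons (-5.66) only, and Col6a6 in neurons (-4.55) only, at least 4.14-fold over MEF, a bound that fell below 2-fold with normexp correction or quantile normalization (0.63 at the lowest on the log2 scale). Col6a5 read -4.47 in MEF and -6.38 at 3 dpi, 3.75-fold lower (-0.97 on the log2 scale with normexp correction), and was not well above background at 5 dpi. Col20a1, a fibril-associated chain, was 2.47-fold higher in neurons than in MEF, but fell short of 2-fold after quantile normalization or median centring (0.49 at the lowest on the log2 scale). Col23a1, a membrane-anchored chain, was 2.52-fold higher at 5 dpi, which fell short of 2-fold after quantile normalization or median centring. Col28a1 read between -6.81 and -5.89 on the fibroblast arrays, was past 2-fold lower than MEF at 3 dpi with quantile normalization or median centring, and was not well above background in neurons.

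**Figure D5:**
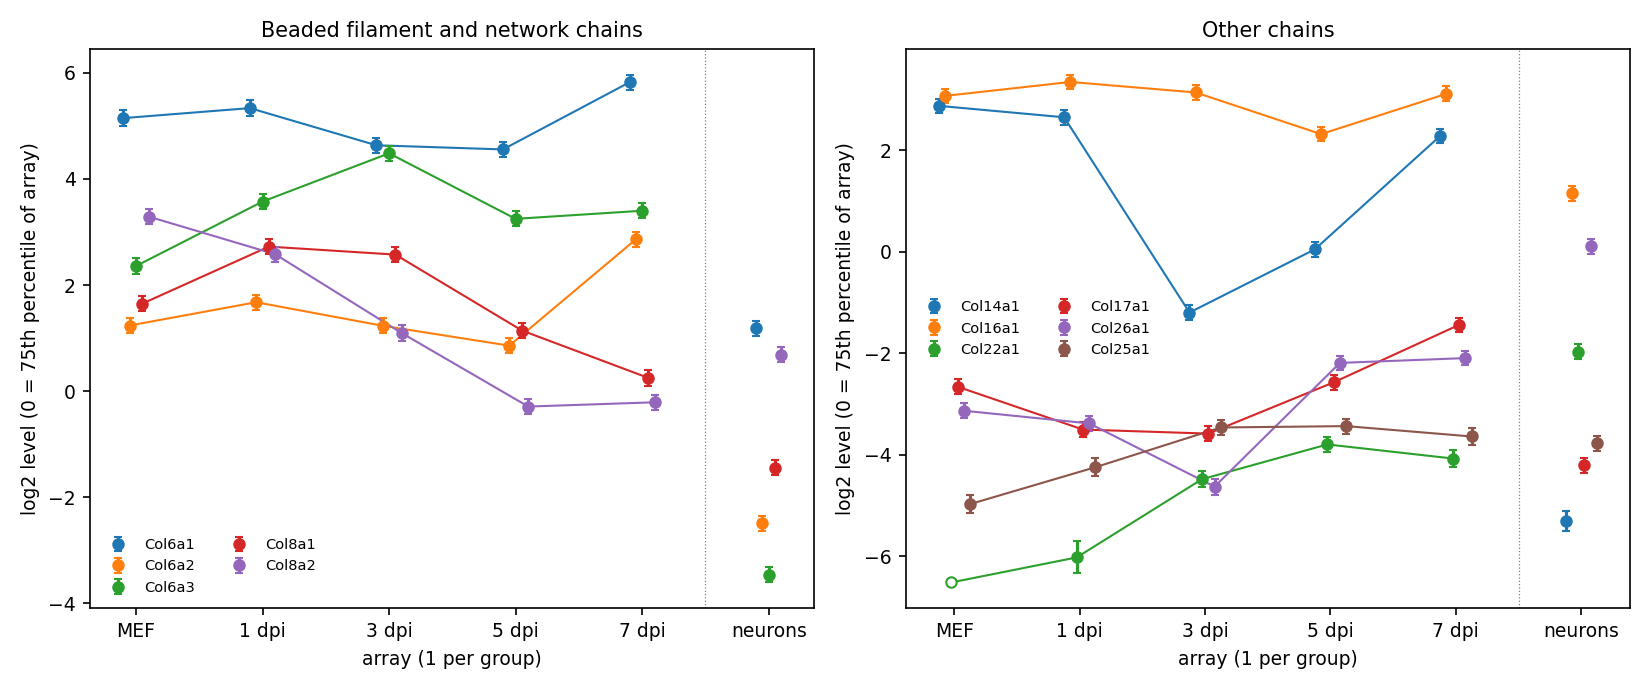
Log2 level (vertical axis, 0 at the array's 75th percentile) of 5 beaded filament and network chains (left) and 6 other chains (right) on 6 arrays (horizontal axis), with bars for the array error and open circles for arrays not well above background. Col14a1 dips to -1.20 at 3 dpi and returns to 2.28 in the array labelled 7 dpi, while Col8a2 goes from 3.29 in MEF to -0.29 at 5 dpi.

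Taken by array, 11 of the 42 chains above background somewhere were highest in the array labelled 7 dpi and 10 in neurons. The lowest level of 20 was in neurons. Such counts were not made over all genes. Some lowest levels, such as that of Col10a1 in neurons, were not well above background. The remaining comparisons lie within scan 2. From 3 to 5 dpi, 5 of 39 chains were at least 2-fold higher, against 8.09% of all genes, and 6 were lower, against 4.56%, led by Col2a1. From 5 dpi to the array labelled 7 dpi, 9 of 40 were higher, against 5.88%, led by Col15a1 (3.10), and 4 were lower, against 4.64%, led by Col10a1. Neurons against the array labelled 7 dpi had 9 of 41 chains higher, against 19.5%, and 20 lower, against 14%. All 8 chains of the fibrillar class were lower in that comparison, by a median of 4.01 on the log2 scale. Of types II and XI, outside that class, Col2a1 and Col11a2 were higher and Col11a1 was lower.

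The genes that modify and export collagen were measured as a list of 36. At least 2-fold above MEF were 1 of 34 with a value at 1 dpi, 4 of 35 at 3 dpi, 3 of 35 at 5 dpi and 0 of 33 in the array labelled 7 dpi, and 0, 2, 1 and 0 were lower. The shares of all genes were 5.38%, 16.3%, 17.9% and 17% higher and 5.98%, 9.82%, 8.21% and 6.83% lower. In neurons 25 of 35 were lower, against 16.1% of all genes, and 2 higher, against 30.1%, with a median of -2.13, beside 0.25 over all genes with a value. Serpinh1, the chaperone specific to collagen, read 6.07 in MEF, 6.15, 5.75, 6.07 and 6.21 over the Tet3 arrays in order of time, and 3.94 in neurons. Lox, an enzyme that cross-links fibrils, was 2.42-fold lower than MEF at 5 dpi, within 2-fold of it in the array labelled 7 dpi and 95.8-fold lower in neurons. Adamts2, the protease that trims the amino end of fibrillar procollagens, was 4.21-fold lower at 3 dpi and within 2-fold of MEF at the other Tet3 times. The enhancer of propeptide cleavage Pcolce2 lay 21.0-fold above MEF at 3 dpi and 5.74-fold above it at 5 dpi, while its homologue Pcolce was within 2-fold of MEF at each Tet3 time. Loxl3 and Loxl4, further cross-linking enzymes, were 4.45-fold and 3.09-fold higher at 3 dpi.

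Partners in the matrix and on the cell surface were measured too. Of 13 laminin, nidogen and proteoglycan genes, 2, 2, 5 and 1 were at least 2-fold higher at the 4 times, against 5.38%, 16.3%, 17.9% and 17% of all genes, and 0, 1, 0 and 0 were lower, against 5.98%, 9.82%, 8.21% and 6.83%. Agrn, a heparan sulphate proteoglycan, read 2.58 in MEF, 3.88, 3.96, 3.88 and 3.65 over the Tet3 arrays in order of time, and 3.76 in neurons. Of 9 collagen receptors measured, 0, 1, 1 and 1 were at least 2-fold higher over the same times and 0, 0, 1 and 1 lower, beside the same shares of all genes. Itga11, the integrin chain that binds fibrillar collagen on fibroblasts, read 2.39, 3.18, 3.38, 0.86, 0.42 and -2.42, and Ddr1, a receptor kinase, read 1.65, 1.77, 1.28, 3.15, 2.66 and 3.53 over the same arrays. Itga11 was lower from 5 dpi onwards and Ddr1 higher, and neurons lay further in the same directions.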

How the data were processed

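Total RNA of 6 samples was labelled with Cy3 and each hybridised to 1 Agilent mouse array. Per the submitters' processing notes, spots were read with Agilent Feature Extraction 11.0.1.1. The scanner files deposited by the authors hold, per the file headers, raw median, local background, background-subtracted and processed intensity columns, and the processed column and its error were used. The authors' deposited series table holds log2 values whose 75th percentile is 0 on each array by steps that the sources used here do not name. Its column medians, in the order MEF, 1, 3, 5, 7 dpi and neurons, were -3.30, -3.23, -3.00, -2.90, -2.86 and -2.50. Over the collagen probes it differed from log2 processed signals scaled the same way by at most 0.0053. Its values were used here, and its direction is that of the signal. Flags and errors came from the scanner files, of which that of neurons holds rounded numbers.

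Of 39409 probes with a usable spot on every array, 27222 were named through the RefSeq accession. A probe was well above background where at least 0.5 of its spots were. A bound took, for the dim array, the higher of its own value and the lowest well-above-background level. Values past 2-fold were counted. The collagen chains and all lists were chosen with earlier results of these data known. Named chains were, per class, those with the widest range or highest level and chains sharing a molecule; any other chain named was chosen after its values were seen. From other lists, those with the largest difference from MEF were eligible, and Serpinh1, Sox9, Agrn and other level or contrasting members were chosen after their values were seen. The calling was tested on simulated data. There was 1 array per group, and this number limits the precision. Normexp (offset 50, on median signals) used limma 3.58.1 in R 4.3.3, and the rest numpy 2.4.6 and pandas 2.3.3.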

Additional observations from a re-analysis of the deposited data

Results flagged for a closer look

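Some chains were at least 2-fold above MEF at 1 Tet3 time and at least 2-fold below it at another, and these differences between times were not tested. Col2a1 was at 4.92 (log2) over MEF at 3 dpi and at -2.33 on the array labelled 7 dpi. Col10a1 was at 3.67 and, as a bound, at -2.58 on the same arrays. Col8a1 was at 1.07 at 1 dpi and at -1.40 on the array labelled 7 dpi. Col15a1 was at 2.26 on the array labelled 7 dpi and, as a bound, at -1.97 at 1 dpi. This bound fell short of 2-fold with normexp correction, at -0.71. Col26a1 was at 1.04 on the array labelled 7 dpi and at -1.50 at 3 dpi, and the first of these fell short of 2-fold with normexp correction, quantile normalization or median centring. All comparisons share the MEF array.

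Probes that the report does not use for its values held signals that the brightest probe did not. The dimmer Col4a6 probe was higher by 5.64 in neurons than in MEF, where the brightest differed by 0.51. For Col9a1 the values were 3.76 and 0.48. The dimmer Col6a5 probe was higher in neurons by at least 2.63, against 0.12 for the brightest. A dimmer Col4a4 probe was higher by 2.08 at 3 dpi, against 0.32.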

How the results depend on the processing

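Of 139 differences past 2-fold among the chains over the 8 comparisons, 95 were past 2-fold the same way under all of the 7 alternatives that gave a value, and 0 changed sign. For a chain with 1 probe that was well above background on both arrays, the filters and the mean over probes could not change the difference. The authors' scaling recomputed from the scanner signals and the absence of a filter left all counts and medians within 1.5 times or the array error. Centring arrays on their median gave 5 chains at least 2-fold higher and 7 lower at 5 dpi over MEF, 6 and 7 for 7 dpi over MEF, 6 higher for neurons over MEF and 8 lower at 3 dpi. Under it the median over chains was -0.30, -0.26 and 0.057 at 3, 5 and 7 dpi over MEF. It was -1.36 for neurons over MEF and -1.36 for neurons over 7 dpi. Over all genes measured on both arrays these medians were -0.15, -0.26, -0.30, -0.71 and -0.37 in the same order. Quantile normalization gave 8 higher for neurons over MEF and 8 lower at 3 dpi, and medians of 0.29 (7 dpi over MEF), -1.06 (neurons over MEF) and -1.49 (neurons over 7 dpi). Normexp gave 8 higher for 7 dpi over MEF, 3 lower at 3 dpi, 1 lower at 1 dpi, 3 higher for 5 over 3 dpi, and a median of -0.76 for neurons over 7 dpi. The mean over probes gave 3 lower at 3 dpi over MEF. With both arrays required above background, 1 was lower at 1 dpi and the median for neurons over MEF was -1.15. The cause of these shifts was not tested. Calls lost under at least 1 alternative included those of Col9a3, Col23a1 and Col25a1 at 5 dpi and in the array labelled 7 dpi. No paired analysis was possible because each group has 1 array.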
